A study of Mus musculus with 6 samples.

Results

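AP-1 is a transcription factor built from pairs of basic leucine zipper proteins. FOS proteins cannot pair with each other and bind DNA with a JUN partner, JUN proteins can also pair among themselves, and ATF3 joins JUN proteins on related sites. Most of these genes are immediate early genes, which are transcribed within minutes of a hormonal, nutrient or stress signal and make short-lived mRNAs, and in pituitary cells they respond to releasing hormones that act through cyclic AMP, calcium and MAP kinases. The 9 genes described are the FOS subunits FOS, FOSB and FOSL2, the JUN subunits JUN, JUNB and JUND, ATF3, and 2 immediate early genes that are not AP-1 subunits, IER2, a nuclear regulator of transcription, and BTG2, an antiproliferative gene that promotes mRNA deadenylation. They were taken by symbol from a table of 16736 rows, all 9 were found once, and all 9 were among the 13873 genes tested.

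The samples were pituitary glands of male mice, 3 libraries labelled RD and 3 labelled HFD. All glands were collected after 16 h without food followed by 4 h of feeding, and RNA was enriched for poly(A). The labels give no strain, age or genotype and do not spell out the diet abbreviations, and they leave unsaid whether each replicate came from its own animals. The p-values therefore reflect variation among the libraries, which can be technical. The series as a whole is about obesity and the unfolded protein response of pituitary and liver.

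Library totals over the listed rows ranged from 14185372 to 18111345 counts. All levels below are in CPM, the usual depth-scaled unit, here on TMM-scaled library totals. Of 7 genes of pituitary hormones or their subunits, all were expressed. Their summed level ran from 85057 to 95537 CPM in RD and from 58322 to 65152 CPM in HFD. The growth hormone gene GH1 made up most of that sum, and the other 6 summed to 23514 to 26133 CPM in RD and 18796 to 28565 CPM in HFD. Of the 7, GH1, PRL, FSHB and LHB fell, TSHB and CGA rose, and POMC was not called. RD replicate 3 lay farthest from the other libraries on the leading principal component. Markers of other cell types were called in 2 of the lists. MAG, a myelin gene, rose in HFD (the call was lost on leaving out RD replicate 2, HFD replicate 2 or HFD replicate 3), and the 3 tested oligodendrocyte markers summed to 59.4 to 71.4 CPM in RD and 69.8 to 181 CPM in HFD. The collagen gene COL1A2 was lower in HFD, and the 5 fibroblast markers summed to 445 to 484 CPM in RD and 305 to 391 CPM in HFD. Without COL1A2 the other 4, none of them called, summed to 173 to 197 CPM in RD and 138 to 201 CPM in HFD, which overlap. None of the 9 myeloid markers (80.2 to 108 CPM in RD, 95.0 to 109 CPM in HFD), 6 endothelial markers (357 to 376 and 368 to 396 CPM), 5 folliculostellate markers (64.3 to 78.2 and 62.7 to 83.1 CPM) or 6 markers of the posterior lobe and hypothalamus (72.4 to 131 and 47.8 to 104 CPM) was called by edgeR, DESeq2 or limma-voom, and at an unadjusted p under 0.05 edgeR marked 1 of them, the endothelial gene CDH5 (named after its value was seen). The part of these cell types in the results below was not tested, and in whole glands more cells of a type cannot be told apart from more RNA per cell.

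Most of the start regions searched, though not all, hold letters that match an element named below. RefSeq promoter sequences (GRCm38.p6) were matched for 8 of the 9 genes, all but IER2, which was not searched. The 250 bases before each start were searched on both strands for the full cyclic AMP response element TGACGTCA and its core TGACG. The search also took in the AP-1 element TGANTCA, the variants TGACATCA (jun1) and TTACCTCA (jun2) of the JUN promoter, and the ATF element TTACGTCA. The core also lies within the full element and, on the other strand, within the ATF element. Windows that hold a match to any of these elements are shown, whether or not the gene was called. Each match is in capitals, and the gene's RefSeq start comes just after the last base.
FOS: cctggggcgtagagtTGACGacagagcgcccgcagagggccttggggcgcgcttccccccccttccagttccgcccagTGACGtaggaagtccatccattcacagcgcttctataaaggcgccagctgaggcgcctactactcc
FOSB: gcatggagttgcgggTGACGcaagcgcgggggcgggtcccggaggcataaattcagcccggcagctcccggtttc
JUNB: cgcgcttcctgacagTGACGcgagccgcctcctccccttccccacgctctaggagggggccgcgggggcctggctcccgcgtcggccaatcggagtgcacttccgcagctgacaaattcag
ATF3: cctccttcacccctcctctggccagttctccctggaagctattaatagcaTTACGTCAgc
BTG2: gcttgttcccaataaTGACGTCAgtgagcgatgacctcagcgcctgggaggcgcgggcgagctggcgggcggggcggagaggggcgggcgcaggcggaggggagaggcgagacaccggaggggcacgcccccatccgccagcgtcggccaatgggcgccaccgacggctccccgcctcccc
JUN: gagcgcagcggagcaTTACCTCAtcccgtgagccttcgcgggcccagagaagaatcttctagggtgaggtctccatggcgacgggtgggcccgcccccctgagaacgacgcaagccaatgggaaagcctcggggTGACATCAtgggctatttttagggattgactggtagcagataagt

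The FOS window is chr12:85473746-85473889 on the plus strand. The others lie on the minus strand, FOSB at chr7:19310046-19310120, JUNB at chr8:84978749-84978869, ATF3 at chr1:191183334-191183393, BTG2 at chr1:134079156-134079336 and JUN at chr4:95052223-95052401. The core TGACG was present before 5 of the 8 starts, against 17.8% of 32851 promoters of the same length. The full element stood before BTG2 alone among the 8, where 1.55% of all promoters hold it, and the ATF element before ATF3 alone, where 0.447% do. The 2 JUN variants were found before JUN alone among the 8 (2.93% of all promoters for TGACATCA and 0.728% for TTACCTCA), and TGANTCA before none of them (6.75%). No match was found before the RefSeq starts of FOSL2 or JUND. That of FOSL2 lies 671 bases inside the gene in GENCODE M21, and the 75 bases before it lie in exons of the gene. That of JUND lies 1210 bases before the start of the gene in GENCODE M21. The bases just before the GENCODE starts of FOSL2 and JUND were thus not searched. The RefSeq start of ATF3 is 34706 bases inside the gene, at the promoter of a shorter transcript. These matches describe the letters only.

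In HFD against RD pituitaries FOSL2, JUNB and ATF3 rose, by 2.22-fold, 2.75-fold and 2.54-fold, and the other 6 genes did not pass the threshold. The comparison was run with edgeR's quasi-likelihood test over all 13873 genes with Benjamini-Hochberg adjustment, and an adjusted p below 0.05 is referred to as called. Calls numbered 3 of 9 and all were higher in HFD, where 10.5% of all tested genes were called and 5.87% were called higher. The 9 fitted changes were all above 0, with a median log2 change of 0.82 against 0.00 over all tested genes. The groups did not overlap for the same 3 genes, all higher in HFD, and 16.9% of all tested genes were higher in HFD without overlap. The 9 genes together made up 640 to 1390 CPM in RD and 1220 to 2470 CPM in HFD, so that RD replicate 1, the highest of its group, stood above the lowest HFD library.

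**Figure D1:**
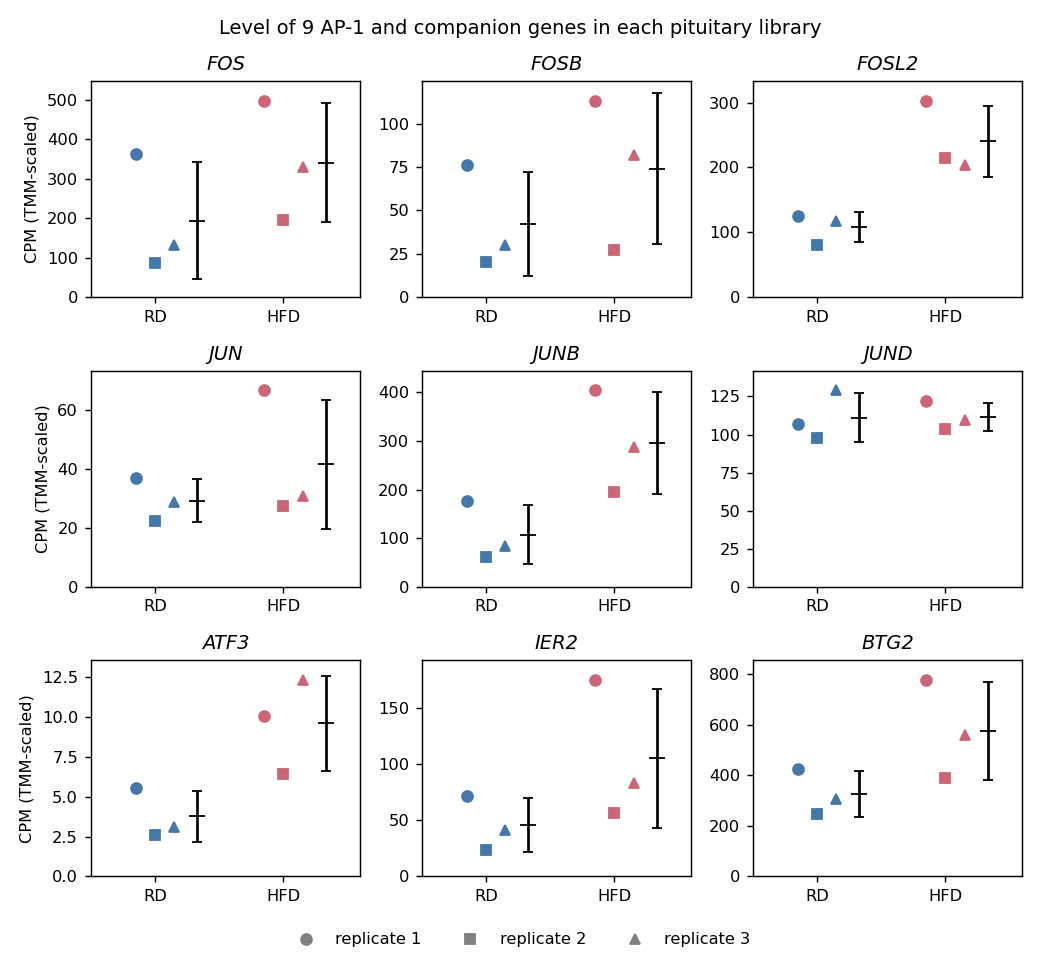
Level of each of the 9 genes in CPM (TMM-scaled, linear axis from 0) in the 3 RD and 3 HFD libraries, with the symbol showing the replicate number and the black bar the mean ± SD (n = 3). FOSL2, JUNB and ATF3 have every HFD library above every RD library, while RD replicate 1 lies inside the HFD range for FOS, FOSB, JUN, JUND, IER2 and BTG2.

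Among the FOS subunits, FOSL2, which encodes FRA-2, a subunit without the strong activation domain of FOS, was the only one called. It lies on the plus strand of chromosome 5 of mm10 (GRCm38), 32135801 to 32157842, with 4 exons. FOSL2 stood at 126, 81.1 and 118 CPM in RD replicates 1, 2 and 3 and at 303, 215 and 203 CPM in HFD replicates 1, 2 and 3. Every HFD library was above every RD library. The mean rose from 108 ± 23.7 to 240.5 ± 54.5 CPM (SD, n = 3 each). The log2 change was 1.15 ± 0.18 (SE), with an adjusted p of 0.0053 by edgeR. The call held in each of the 15 alternative settings, with log2 changes from 0.95 to 1.26 and adjusted p up to 0.0216.

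FOS itself, the founding immediate early gene of the family (chromosome 12, plus strand, 85473890 to 85477273, 4 exons), varied more between libraries of a group than between groups. It was at 364, 86.5 and 132 CPM in RD replicates 1, 2 and 3 and at 498, 196 and 330 CPM in HFD replicates 1, 2 and 3. RD replicate 1 exceeded 2 of the HFD libraries. The log2 change was 0.81 ± 0.47 (adjusted p = 0.31 by edgeR), and the highest RD library was 4.20 times the lowest. The value depended on which libraries were kept. Without RD replicate 1 the log2 change was 1.63 and FOS was called (adjusted p = 0.0165), and it was 0.46 without RD replicate 2 (adjusted p = 0.55) and 0.44 without HFD replicate 1 (adjusted p = 0.65), with adjusted p from 0.0165 to 0.65 over the 6 fits with a library left out.

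FOSB, whose splice variant lacking the transactivation end accumulates under repeated stimulation (chromosome 7, minus strand, 19302696 to 19310051, 4 exons), was at 76.0, 20.1 and 30.0 CPM in RD and at 113, 27.2 and 81.9 CPM in HFD, replicates 1, 2 and 3 in order. HFD replicate 2 lay below RD replicates 1 and 3. The log2 change was 0.82 ± 0.52 (adjusted p = 0.36 by edgeR). It was 1.55 without RD replicate 1, 0.48 without RD replicate 2 and 0.37 without HFD replicate 1, and none of these was called. Gene counts do not separate the splice variants.

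Among the JUN subunits, JUNB had the largest fitted change of the 9 genes. JUNB competes with JUN for partners and is the weaker activator on many AP-1 sites. Its single-exon coding transcript belongs to a gene on the minus strand of chromosome 8 (84974484 to 84978718). JUNB was at 177, 61.3 and 83.9 CPM in RD replicates 1, 2 and 3 and at 404, 196 and 287 CPM in HFD replicates 1, 2 and 3. The lowest HFD library was above the highest RD library by a small margin. The mean went from 107 ± 61.4 to 296 ± 105 CPM (SD, n = 3 each). The log2 change was 1.46 ± 0.36 (SE), with an adjusted p of 0.032 by edgeR. The call depended on the libraries kept. It was lost by DESeq2 (adjusted p = 0.063), and without RD replicate 2 (0.0698), RD replicate 3 (0.0534), HFD replicate 1 (0.101) or HFD replicate 3 (0.107), with log2 changes from 1.17 to 2.02 over the 6 fits with a library left out. The gene overlaps 351 bases of Prdx2 on the other strand, none of them in the coding transcript, and PRDX2 had a log2 change of 0.05 ± 0.07.

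JUN (chromosome 4, minus strand, 95049034 to 95052222, 1 exon), the strongest activator of the family and the main target of the JNK kinases, was at 36.8, 22.1 and 28.8 CPM in RD and at 66.6, 27.3 and 30.6 CPM in HFD, replicates 1, 2 and 3 in order. HFD replicates 2 and 3 lay within the RD range and HFD replicate 1 alone lay above it. The log2 change was 0.50 ± 0.31 (adjusted p = 0.34 by edgeR), and without HFD replicate 1 it was -0.02. JUND (chromosome 8, plus strand, 70698949 to 70700616, 1 exon), the subunit known for steady expression in resting cells, was at 107, 97.5 and 129 CPM in RD and at 122, 104 and 110 CPM in HFD. The groups overlapped in full, and the log2 change was 0.01 ± 0.11 (adjusted p = 0.97 by edgeR). Over the 6 fits with a library left out it lay between -0.08 and 0.12, so that its sign was not fixed. JUN shares 689 bases and JUND 919 bases of the coding transcript with an antisense gene on the other strand (Junos and Gm11175), and whether strand was used in counting is not given in the sources used here.

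ATF3, a member of the ATF and CREB class that represses or activates with JUN partners and is induced by many stresses, lies on the minus strand of chromosome 1 (191170296 to 191218039). It had the lowest level of the 9, with 40 to 91 counts in RD and 94 to 182 in HFD. In CPM it was at 5.57, 2.60 and 3.12 in RD replicates 1, 2 and 3 and at 10.1, 6.38 and 12.3 in HFD replicates 1, 2 and 3. All 3 HFD libraries were above all 3 RD libraries, with RD replicate 1 close to HFD replicate 2. The log2 change was 1.34 ± 0.32 (SE, adjusted p = 0.027 by edgeR). The call was lost without RD replicate 2 (adjusted p = 0.0761), HFD replicate 1 (0.0772) or HFD replicate 3 (0.13), and it held by DESeq2 (0.000586), with adjusted p from 0.000586 to 0.13 over the 15 alternatives.

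The 2 companion genes had fitted changes of the same sign and were not called. IER2 (chromosome 8, minus strand, 84661331 to 84662852, 1 exon) was at 71.8, 23.7 and 41.7 CPM in RD and at 175, 56.9 and 83.7 CPM in HFD, with a log2 change of 1.20 ± 0.43 (adjusted p = 0.11 by edgeR). Its HFD replicate 2 lay below RD replicate 1. Without RD replicate 1 the log2 change was 1.67 and IER2 was called (adjusted p = 0.0366), and without HFD replicate 1 it was 0.62 (adjusted p = 0.35). BTG2 (chromosome 1, minus strand, 134075170 to 134079120, 2 exons) was at 427, 245 and 306 CPM in RD and at 778, 391 and 559 CPM in HFD. Here HFD replicate 2 again lay below RD replicate 1, and the log2 change of 0.82 ± 0.24 missed the threshold (adjusted p = 0.059 by edgeR). BTG2 was called in 6 of 15 alternatives, among them those without RD replicate 1 (adjusted p = 0.0227), without HFD replicate 2 (0.0415), scaled by library size alone (0.0454) and with no filter on low counts (0.0485).

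**Figure D2:**
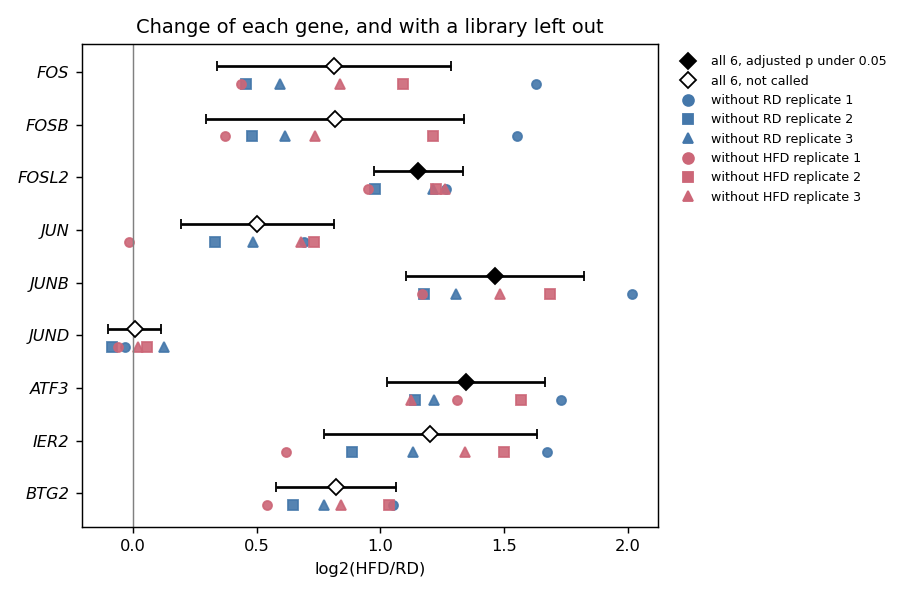
Change of each gene as log2(HFD/RD). Diamonds show the fit on all 6 libraries with its SE, filled where the adjusted p is below 0.05, and coloured symbols the fits without the named library. The FOSL2 values stay between 0.95 and 1.26, whereas FOS runs from 0.44 without HFD replicate 1 to 1.63 without RD replicate 1.

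Without RD replicate 1, 6 of the 9 genes were called, all higher in HFD (5.8% of all tested genes were called higher in that fit). These were FOS, FOSL2, JUNB, ATF3, IER2 and BTG2. On leaving out RD replicate 2 (3.52% of all tested genes called higher), HFD replicate 1 (2.81%) or HFD replicate 3 (1.74%) the number was 1, FOSL2 in each case. With replicate 1 of both groups left out, a setting chosen after the data were seen, 5 genes were called, namely FOS (1.26 ± 0.26), FOSL2, JUNB, ATF3 and BTG2 (3.36% of all tested genes were called higher).

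Most of these genes spread widely between libraries of the same group. For FOS the SD of log2 CPM was 1.06 over the RD libraries and 0.68 over the HFD libraries, and for FOSB 0.98 and 1.08. The SD pooled over the groups was 1.03 for FOSB, 0.89 for FOS, 0.81 for IER2 and 0.67 for JUNB, which put FOSB at percentile 99.7, FOS at 99.3, IER2 at 98.9 and JUNB at 97.7 of all tested genes. JUN (95.7), ATF3 (94.7), BTG2 (92.5) and FOSL2 (85.1) followed. JUND, at an SD of 0.17, was at percentile 58.3. Percentiles are over genes of every level, and low counts widen the spread of weak genes such as ATF3.

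**Figure D3:**
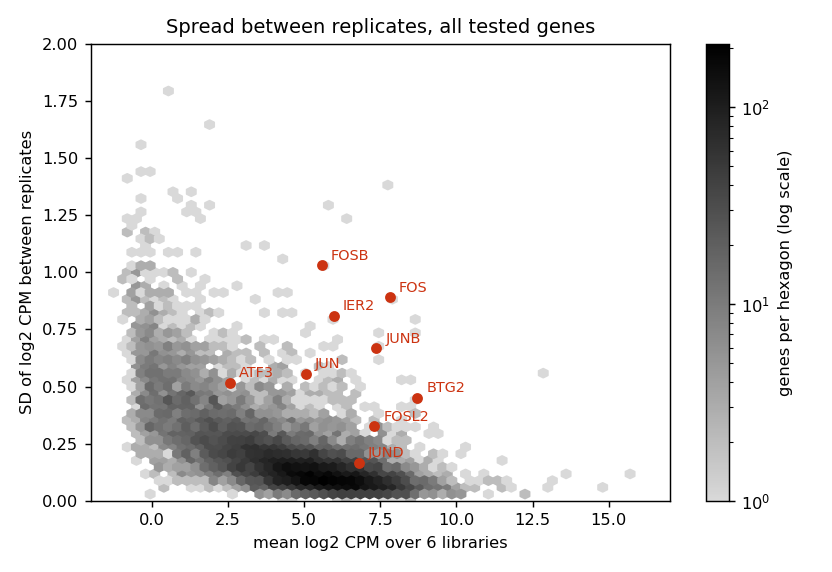
SD of log2 CPM between the replicates of a group (pooled over RD and HFD) against mean log2 CPM for all 13873 tested genes, as hexagons shaded by the number of genes on a log scale, with the 9 genes as red points. FOSB, FOS, IER2 and JUNB stand above the bulk of genes of their level, and JUND, at 0.17, lies near it.

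The same libraries were high or low for most of the 9 genes. In RD, replicate 1 was the highest library for 8 of 9 genes (JUND was highest in replicate 3), and replicate 2 was the lowest for all 9. In HFD, replicate 1 was the highest for 8 of 9 genes (ATF3 was highest in replicate 3), and replicate 2 the lowest for 8 of 9 (FOSL2 was lowest in replicate 3). Over all tested genes RD replicate 1 was the highest of its group for 32.0% and RD replicate 2 the lowest for 30.5%, and HFD replicate 1 was the highest for 35.8% and HFD replicate 2 the lowest for 31.1%. Of 45 other immediate early genes tested, 28 were highest in RD replicate 1 and 33 lowest in RD replicate 2, and 34 were highest in HFD replicate 1 and 32 lowest in HFD replicate 2. Of 15 heat shock genes, 12 were highest in RD replicate 3 and 12 lowest in RD replicate 2, and 14 were highest in HFD replicate 1 and 11 lowest in HFD replicate 3. The labels give no batch, date or time of dissection that would set these libraries apart.

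**Figure D4:**
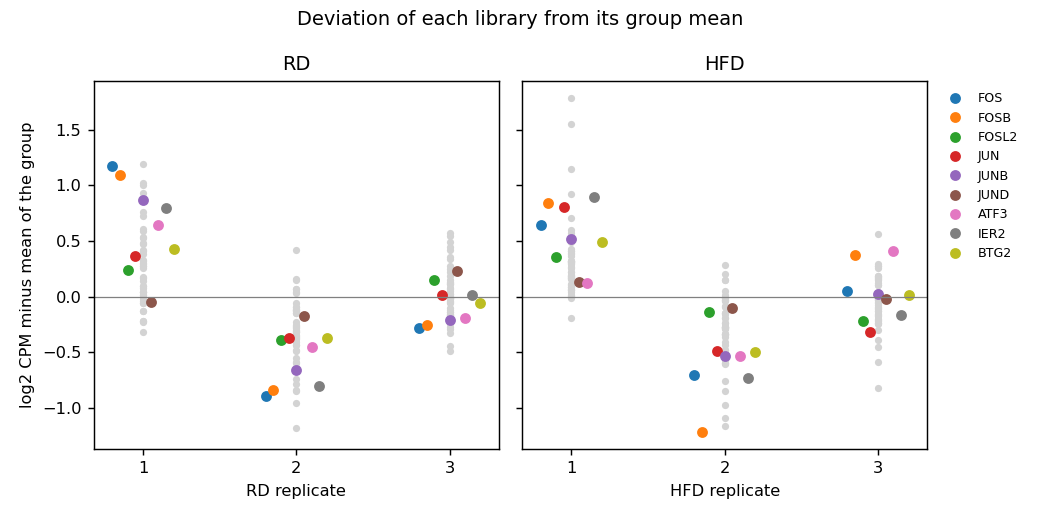
Log2 CPM of each library minus the mean of its group, for the 9 genes (coloured) and the 45 other immediate early genes tested (grey), by replicate, with RD on the left and HFD on the right. RD replicate 1 and HFD replicate 1 lie above 0 for most genes and replicate 2 of each group below 0, with FOS, FOSB and IER2 among the widest and JUND close to 0.

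Levels were compared between genes per kilobase of the coding transcript in GENCODE M21. In RD the order of mean CPM per kb was BTG2 (119 ± 33.7), FOS (92.1 ± 70.5), JUND (66.6 ± 9.72), JUNB (59.4 ± 33.9), IER2 (30.1 ± 16.0), FOSL2 (16.5 ± 3.63), FOSB (11.1 ± 7.89), JUN (9.17 ± 2.30) and ATF3 (1.90 ± 0.80; SD, n = 3 each). Every neighbouring pair in this order overlapped between libraries except JUN and ATF3. In HFD JUNB (164 ± 57.8) stood beside FOS (162 ± 71.9) below BTG2 (210 ± 70.6), followed by IER2 (69.2 ± 40.8), JUND (67.0 ± 5.47), FOSL2 (36.8 ± 8.33), FOSB (19.6 ± 11.5), JUN (13.0 ± 6.83) and ATF3 (4.83 ± 1.51). There JUND and FOSL2, FOSL2 and FOSB, and JUN and ATF3 did not overlap, and the other neighbours did.

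JUND made up a smaller part of the JUN family in every HFD library than in any RD library. JUND held 36.9%, 58.9% and 58.3% of the summed CPM per kb of JUN, JUNB and JUND in RD replicates 1, 2 and 3, and 23.0%, 34.8% and 28.0% in HFD replicates 1, 2 and 3. The ranges did not overlap, though RD replicate 1 and HFD replicate 2 were close. The share averaged 51.4% ± 12.5 over the RD and 28.6% ± 5.92 over the HFD libraries (SD, n = 3 each), a difference of -22.7 percentage points (two-sided exact permutation test, p = 0.1, the smallest that 3 against 3 libraries can give). JUNB held 56.5%, 34.1% and 34.9% in RD and 70.4%, 60.4% and 67.9% in HFD, and JUN between 4.10% and 6.99% in every library. By CPM per kb JUNB was thus the most abundant JUN transcript in all 3 HFD libraries and in RD replicate 1, and JUND in RD replicates 2 and 3. The part of the antisense genes that overlap JUN and JUND in these shares, and in the order of levels above, was not tested. The level of JUND itself had a log2 change of 0.01 ± 0.11. Its lower share thus restates the rise of JUNB and is not a separate result.

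The FOS family stands here for FOS, FOSB and FOSL2 only. Of their summed CPM per kb FOS took 69.8% to 81.4% in every library. FOSL2 took 9.07%, 21.1% and 20.3% in RD and 14.8%, 24.8% and 14.9% in HFD. The log2 ratio of summed FOS-family to summed JUN-family CPM per kb was 0.29, -0.76 and -0.58 in RD and -0.02, -0.43 and -0.16 in HFD. The mean difference was 0.14 and the groups overlapped (two-sided exact permutation test, p = 0.7). Its sign was not fixed, at -0.06 without RD replicate 2 and 0.46 without RD replicate 1.

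**Figure D5:**
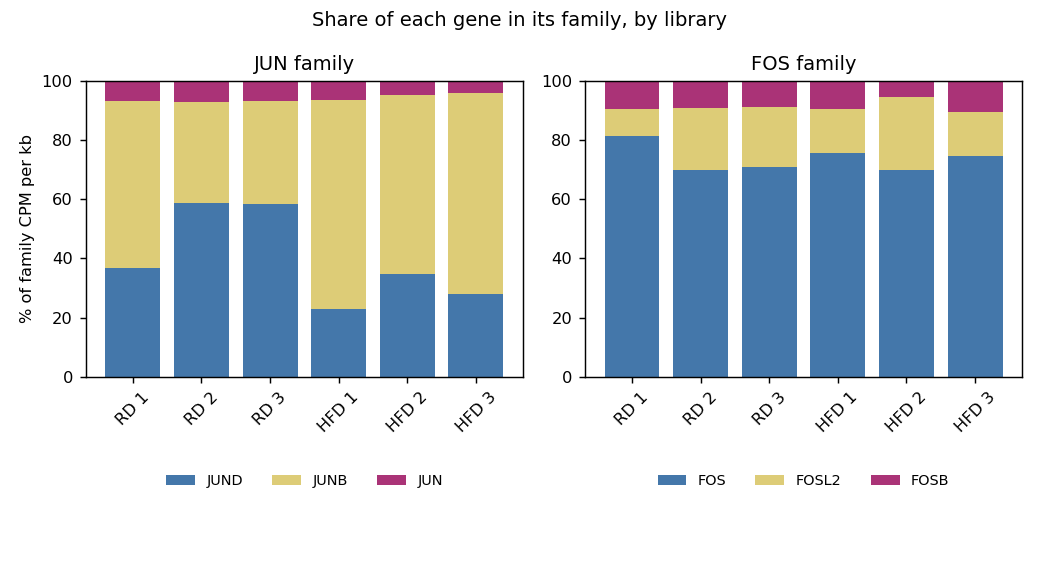
Share of each gene in the summed CPM per kb of the JUN family (left) and of the FOS family (right, FOS, FOSB and FOSL2 only), as stacked bars for the 6 libraries. The JUND share lies between 36.9% and 58.9% in RD and between 23.0% and 34.8% in HFD, and FOS takes over 69% of its family in each library.

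Ratios of 2 genes within a library do not depend on the scaling of the library. Of the 36 pairs of the 9 genes, the log2 ratio did not overlap between the groups for 10 (27.8%). Each had a two-sided exact permutation p = 0.1, the smallest possible, and an adjusted p = 0.36 over the 36 pairs. Among all tested genes, taken singly, 32.5% did not overlap in either direction. No pair was thus shown to differ between the groups, and the ratios below are descriptions. Those with JUNB or FOSL2 also carry the changes of these 2 called genes. The log2 ratio of FOS to JUNB was 1.04, 0.50 and 0.66 in RD replicates 1, 2 and 3 and 0.30, 0.00 and 0.20 in HFD replicates 1, 2 and 3. FOS was thus lower relative to JUNB in all 3 HFD libraries, by 0.57 on average. FOSL2 relative to JUND was at 0.24, -0.27 and -0.13 in RD and at 1.32, 1.05 and 0.89 in HFD, a difference of 1.14. The log2 ratio of JUN to JUNB was -2.27, -1.47 and -1.54 in RD and -2.60, -2.84 and -3.23 in HFD, a difference of -1.13. FOSL2 and FOS, of which only the former was called, were not shown to differ in their response, since their ratio overlapped between the groups.

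The genes with the most similar pattern were sought among the 12749 genes whose mean log2 CPM reached 1, by the root mean square distance of log2 CPM over the 6 libraries, each gene centred on its own mean. For FOS they were NR4A1 (0.20), NR4A2 (0.25) and OVCA2 (0.25), against 0.26 for IER2 and 0.28 for FOSB. NR4A1, an orphan nuclear receptor gene, was at 579, 147 and 275 CPM in RD and 954, 467 and 564 CPM in HFD, in the same order of libraries as FOS. For JUN they were KLF2 (0.20), ZFP36 (0.21) and PHLDA1 (0.22), and the nearest of the 9 genes was BTG2 (0.27). For ATF3 they were SIK1 (0.16), SLITRK2 (0.19) and CSRNP1 (0.19), and the nearest of the 9 genes was JUNB (0.28). SIK1, a kinase that holds back CREB coactivators, was called (log2 change 1.31, adjusted p = 0.018 by edgeR), as were SLITRK2 (1.31, 0.032) and CSRNP1 (1.08, 0.038). These genes were chosen for closeness to ATF3, itself called, over the same libraries. Their similar changes and calls follow from that choice and are no separate support.

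Of the 45 other immediate early genes tested, 13 rose, 0 fell and 32 were not called by edgeR, with a median log2 change of 0.47 and 42 values above 0 (5.87% of all tested genes were called higher). The 4 with the smallest p were GEM, a small GTPase that restrains calcium channels (1.12 ± 0.20), EGR4, a zinc finger factor (1.94 ± 0.34), TIPARP, a mono-ADP-ribosyltransferase (0.47 ± 0.09), and PER1, a clock repressor with a CREB-driven promoter (0.79 ± 0.16). The number called was 8 without RD replicate 2 and 3 without HFD replicate 1 or HFD replicate 3. TIPARP missed the threshold without HFD replicate 2 (adjusted p = 0.0525) or HFD replicate 3 (0.0519), and PER1 without HFD replicate 1 (0.051) or HFD replicate 3 (0.0701). In the same libraries 13 of 15 heat shock genes fell and 0 rose (4.61% of all tested genes were called lower), with a median log2 change of -0.94. The 4 with the smallest p were HSP90AB1 (-0.75 ± 0.08), HSP90AA1 (-1.55 ± 0.17), HSPA8 (-1.15 ± 0.12) and HSPD1 (-0.83 ± 0.10).

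Of 17 MAP kinases, their kinases and JNK scaffolds, 2 rose and 0 fell by edgeR, where 10.5% of all tested genes were called and 5.87% were called higher. These were the scaffold gene MAPK8IP1 (0.32 ± 0.06) and MAP2K7, a kinase that activates JNK (0.27 ± 0.06). MAPK8IP1 missed the threshold (adjusted p = 0.0568) without HFD replicate 3, and MAP2K7 without any 1 of RD replicate 2 and the 3 HFD libraries (adjusted p from 0.0615 to 0.0935). Of 16 factors that act on immediate early promoters, among them SRF and CREB1, 0 were called by edgeR, DESeq2 or limma-voom and 2 had an unadjusted p under 0.05 in edgeR. The smallest p belonged to the CREB coactivator gene CRTC1 (0.23 ± 0.07, adjusted p = 0.056) and to MEF2C (0.30 ± 0.12, adjusted p = 0.16). CRTC1 was called when scaled by library size alone (0.0204), upper-quartile scaling (0.0351) or a minimum count of 50 (0.0458), and MEF2C without RD replicate 1 (0.0442). Of 9 factors of AU-rich mRNA decay and of FOS and JUN turnover, HNRNPD, which encodes the decay factor AUF1, was the only one called by edgeR (0.34 ± 0.06). DESeq2 called 2 of the 9, HNRNPD and ELAVL1 (the latter named after its value was seen). Over all tested genes edgeR called 10.5% and DESeq2 13.1%, so these counts are near the background.

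Of 17 textbook target genes of AP-1 tested, 0 were called by edgeR, DESeq2 or limma-voom, and 2 had an unadjusted p under 0.05 in edgeR. With 10.5% of all tested genes called by edgeR, a count of 0 among 17 is near the background. Of the same 17, 4 had fitted changes above 0, with a median log2 change of -0.14 (0.00 over all tested genes). HBEGF, a growth factor gene, had a log2 change of -1.01 ± 0.41 (adjusted p = 0.15 by edgeR). Its level was low, at 2.26, 2.41 and 6.18 CPM in RD replicates 1, 2 and 3 and 2.08, 1.83 and 1.49 CPM in HFD. Without RD replicate 3 the log2 change of HBEGF was -0.38 (adjusted p = 0.55 by edgeR). Of 3 pituitary genes with known AP-1 sites, GNRHR (-0.81 ± 0.14) and FSHB (-0.39 ± 0.07) fell, where 4.61% of all tested genes were called lower, and POMC had a log2 change of 0.58 ± 0.29 (adjusted p = 0.23, named as the remaining gene of the list). FSHB missed the threshold (adjusted p = 0.0508 and 0.0522) without HFD replicate 2 or HFD replicate 3.

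AU-rich elements, which speed the decay of immediate early mRNAs, were counted in the 3' UTR of each coding transcript in GENCODE M21. The heptamer TATTTAT was present in 7 of the 9 genes, in all but JUNB and IER2, against 28.4% of 12781 tested genes with a 3' UTR of at least 50 bases and 22 of 45 (48.9%) of the other immediate early genes. The density of the pentamer ATTTA was 4.91 per kb in FOS, 4.12 in JUNB, 3.24 in JUN, 2.53 in ATF3, 2.27 in BTG2, 1.88 in JUND, 1.72 in FOSL2 and 0.466 in FOSB. IER2 held none in 755 bases. The median was 1.20 per kb over all tested genes and 2.39 over the other immediate early genes. Of the 4 genes with the widest spread between libraries, FOS and JUNB had the highest densities of the 9, and FOSB and IER2 the lowest.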

How the data were processed

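The authors deposited 1 table of unnormalized counts, whole numbers for each gene in each of the 6 libraries. The genome build was mm10, per the submitters' processing notes. The aligner and the counting tool were not given in the sources used here, nor was the annotation. Among counts from 1 to 10, 64.0% to 67.0% were even, against 48.9% to 50.4% above 200, so no counting intervals are given. Totals per library set a level of 0.166 to 0.211 CPM for 3 counts. No 2 libraries were identical, and chi-square per degree of freedom between replicates was at least 4.48.

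The test was that of edgeR 4.0.16, run in R 4.3.3 (TMM, minimum count of 10, minimum total of 15, intercept and diet, quasi-likelihood test, two-sided), with adjustment over all tested genes, and the fit was tested on simulated data. Each SE was derived from the log2 change and its F statistic. Alternatives were DESeq2 1.42.0, limma 3.58.1 (voom), other scalings and filters, a replicate block and each library left out, and, chosen after the data were seen, halved counts and replicate 1 of both groups left out. The named genes are the 9 genes, up to 4 called genes of each list with the smallest p (or 2 where none was called), and the 3 genes nearest in pattern to FOS, JUN and ATF3. The genes and lists were chosen with earlier results of these data known. Symbols standing on 2 rows (43) were kept out of the lists. Some genes that the naming rule covers are not reported here.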

Additional observations from a re-analysis of the deposited data

How the results depend on the processing

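Of the 9 genes 3 were called with all libraries. With a replicate block 7 were called (FOS, FOSB, FOSL2, JUNB, ATF3, IER2 and BTG2; 3.41% of all tested genes were called higher in that fit), and 808 genes in all against 1453, while MAG (adjusted p = 0.0521) and MAP2K7 (0.0708) lost their calls. The labels give both groups the numbers 1, 2 and 3 without saying that a number marks a shared animal, litter or day. Deviations from the group mean over 13873 genes correlated at -0.13, 0.00 and -0.10 for same-numbered libraries, so the numbers were not taken to pair the samples. Over the 9 genes alone these values were 0.57, 0.80 and -0.63, and not every library was nearest to its own number. The block left the JUND share (-22.7 percentage points, exact sign-flip p = 0.25) and the FOS to JUN family ratio (0.14, p = 0.5) as they were by construction. With replicate 1 of both groups left out 5 of the 9 genes and 809 genes in all were called. With 1 library left out the counts ran from 1 to 6 of the 9 genes, from 431 to 1523 of all genes, from 18 to 43 of the list genes (40 with all libraries) and from 3 to 16 of the other immediate early genes, the JUND share difference from -30.0 to -19.0 percentage points and the family ratio from -0.059 (reversed, without RD replicate 2) to 0.46. JUN ran from -0.016 (reversed, without HFD replicate 1) to 0.73 and JUND from -0.083 to 0.12, reversed without RD replicate 1 (-0.030), RD replicate 2 (-0.083), HFD replicate 1 (-0.059) or replicate 1 of both groups (-0.089). Scaled by library size alone 1121 of 1546 calls were higher in HFD, against 814 of 1453, and all 9 genes kept a change above 0. With 3 libraries a group, and a group range of up to 4.20-fold for FOS, the change of FOS could not be separated from the spread between libraries.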
